A study of Mus musculus with 8 samples.

Results

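The 35 genes described here encode the CCR4-NOT deadenylase and the surrounding machinery of mRNA decay: the BTG and TOB adaptors, the PAN2-PAN3 deadenylase with poly(A)-binding protein, the decapping enzyme and its activators, the exonuclease XRN1, the helicase UPF1, and proteins that read regulatory elements in 3' UTRs. They were chosen by gene symbol and matched through their Ensembl identifiers on GRCm38, and all 35 were found among the 43629 genes of the count table. RNA was sequenced from 8 libraries of mouse spleen follicular B cells, the resting B cells that recirculate through lymphoid follicles, after kit enrichment and sorting. The labels give the gate as B220+, CD93+, CD21+ and CD23+ cells. In 4 libraries the mice carried Rosa26GFPZFP36L1 together with CD23cre/+, a Cre expressed under CD23 regulatory sequences, and they are called labelled libraries below. The 4 controls carried Rosa26GFPZFP36L1 without Cre, and no group with Cre alone was among the libraries, so that the effects of Cre and of the transgene cannot be told apart. Ages are not given in the labels, and nothing says that each library is a mouse of its own, so the p-values rest on spread among libraries that may be technical.

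ZFP36L1 is an RNA-binding protein that recognises AU-rich elements and recruits CCR4-NOT to the bound mRNA. CCR4-NOT then shortens the poly(A) tail, the cap is removed by DCP2, and XRN1 degrades the body of the message from its 5' end. BTG and TOB proteins recruit CCR4-NOT toward poly(A)-binding protein, and BTG1 and BTG2 are known for holding T cells in quiescence, while Roquin (Rc3h1, Rc3h2) and Regnase-1 (Zc3h12a) recognise stem-loops in immune mRNAs. The comparison asks whether the transcripts of this machinery differed in cells labelled as expressing GFP-ZFP36L1.

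ZFP36 family proteins bind UAUUUAU, read here as TATTTAT on the sense strand, and many of the genes above carry that heptamer themselves. The sites below are a selection made with the values known. They show Cnot6l and Btg2, which had the smallest p of the 35 genes, the adaptor Tob2, the nuclease pair Cnot7 and Cnot8, Rc3h1, and Elavl1, which held the most heptamers. Each line gives the gene, its GRCm38 position and 11 bases on either side, with the heptamer in capitals.

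Cnot6l (chr5:96071161-96071189, minus strand): agggaagagatTATTTATttttgtttcct
Cnot6l (chr5:96070945-96070973, minus strand): tttaggttgtgTATTTATttttcccccta
Cnot6l (chr5:96070692-96070720, minus strand): ctttatttttcTATTTATtacacagttga
Btg2 (chr1:134077249-134077277, minus strand): aaatgaagagcTATTTATacatgtttttt
Tob2 (chr15:81849860-81849888, minus strand): tatcacctgctTATTTATgtacgaggttg
Cnot7 (chr8:40493115-40493143, minus strand): ttttataaacaTATTTATgatgttcttga
Cnot8 (chr11:58118537-58118565, plus strand): cttgtaaatatTATTTATgtttttaattt
Rc3h1 (chr1:160970043-160970071, plus strand): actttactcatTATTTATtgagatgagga
Rc3h1 (chr1:160971397-160971425, plus strand): gttttcccatgTATTTATtcttttgccta
Elavl1 (chr8:4285788-4285816, minus strand): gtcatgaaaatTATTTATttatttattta

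The site in Btg2 lay near the start of its 3' UTR, at position 103 of 2199 nt, and the 3 sites of Cnot6l lay in the last part, from position 6002 of 6847 nt. Elavl1, which encodes the AU-rich element binding protein HuR, held 8 heptamers between positions 3795 and 3841 of 4218 nt, several of them overlapping, of which 1 window is printed. In all, 19 of the 35 members (54.3%) had at least 1 heptamer in their longest 3' UTR, against 29.6% of the 10978 tested genes with an annotated 3' UTR. The members' 3' UTRs were also longer, with a median of 2470 nt against 1348 nt. Btg1, Tob1, Cnot1, Upf1, Hnrnpd and Zc3h12a had none in that longest 3' UTR.

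The libraries held between 38947758 and 48328512 counts in the labelled group and between 40976668 and 51024233 in the controls. Zfp36l1 itself, which checks the labels, was lower in the libraries labelled GFP-ZFP36L1, at 471, 447, 437 and 402 CPM in labelled libraries 1 to 4, against 599, 523, 532 and 535 CPM in control libraries 1 to 4, and the 2 ranges did not overlap. This goes against the label if the counts hold transgene and endogenous transcripts alike, so the groups are called by their labels throughout and each direction below is that of the labels. Gt(ROSA)26Sor, at the locus of the allele, had 3.9 ± 0.604 CPM in labelled and 16.9 ± 2.58 CPM in control libraries (SD, n = 4 each), with no overlap. B-lineage markers summed to between 9512 and 10877 CPM in labelled libraries and between 10784 and 11580 CPM in the controls, and none of the 7 was at 0. All 7 had negative fold changes, and 1, Pax5, passed edgeR's test. The 6 follicular markers summed to between 6760 and 7758 CPM in labelled libraries and between 8307 and 8597 CPM in the controls. Their sum was thus lower in each labelled library, 5 of the 6 had negative fold changes, and 2 passed edgeR's test. The 6 marginal zone markers summed to between 512 and 617 CPM in labelled libraries and between 449 and 528 CPM in the controls, with 4 positive and 2 negative fold changes, of which 1 passed edgeR's test. That marker, Myof, averaged 54.1 CPM in labelled libraries and 22.4 CPM in the controls. Of 8 T cell markers, all but Lck were under 1 CPM in both group means, and 5 neutrophil markers summed to at most 0.0975 CPM in any labelled library and 0.0716 CPM in any control. The NK cell genes Ncr1, Gzma and Nkg7 were at 0, and Klrb1c averaged 0.378 CPM in labelled libraries and 0.276 CPM in the controls. Myeloid markers summed to at most 10.04 CPM in labelled libraries and 11.36 CPM in the controls, and 1 of them passed edgeR's test. The highest sums of erythroid, plasma cell and transitional markers were 8.33, 122.8 and 605.8 CPM in labelled libraries and 13.29, 125.2 and 641.2 CPM in the controls. Cd93, which the gate names although it is among the transitional markers summed above, averaged 11.3 CPM with the label and 10.5 CPM without. The part that the lower B-lineage and follicular markers and the marginal zone markers of mixed sign play in the values below was not tested. In bulk RNA, fewer cells of a type and less RNA per cell cannot be told apart.

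No gene among the 35 members passed the test between the groups, and their fold changes were small. All 35 members passed the filter on low counts, with mean levels from 22.2 to 962 CPM (counts scaled to a library size of 1000000 after TMM normalisation), and their median standard error of a log2 fold change was 0.06, against 0.08 over all 13035 tested genes. None of the 35 passed edgeR's quasi-likelihood test at a Benjamini-Hochberg adjusted p under 0.05, where 3.12% of all tested genes did. At an unadjusted p under 0.05 there were 4 members, or 11.4%, against a background of 17.3%. DESeq2, limma voom and the authors' deposited table each called 1 member, Cnot6l, which is 2.86% of the 35. Over all tested genes they called 882, 1053 and 875, in each case a larger share than among the members. The last was 6.63% of the genes with an adjusted p there. The median log2 fold change was 0.01 over the members and -0.01 over all tested genes, and the median size of a change was 0.04 and 0.09. Groups did not overlap in 1 member, or 2.86%, against 11.2% of all tested genes. Nearer the members in level were the 7152 tested genes of at least 20 CPM. Their median size of a change was 0.066 and their median standard error 0.064. Of them 16.1% had an unadjusted p under 0.05 in edgeR's test, and 10.4% had groups that did not overlap. The 95% intervals of all members other than Btg1, Btg2 and Tob1 lay within -0.21 and 0.29 on the log2 scale. A p that misses the threshold does not show that values did not differ.

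**Figure D1:**
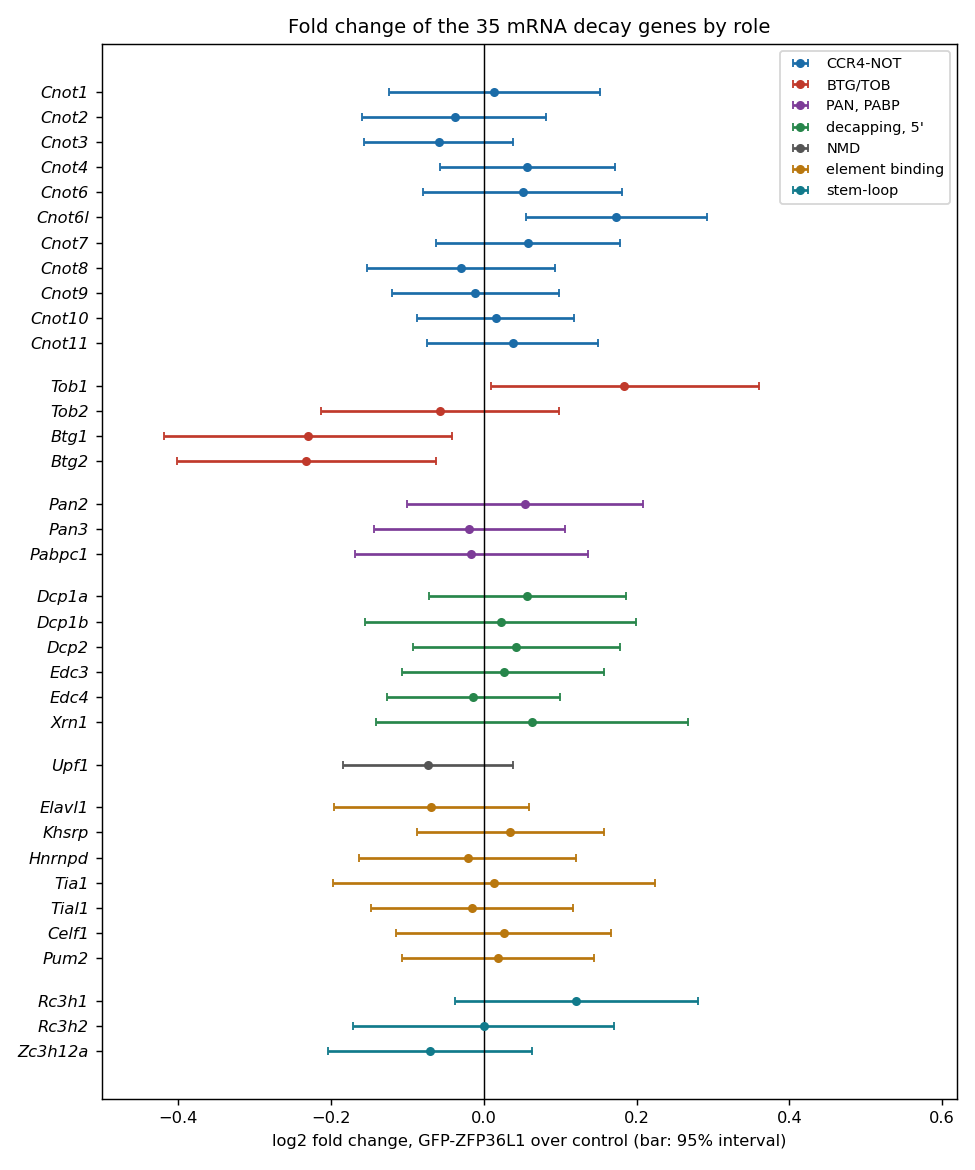
Log2 fold change (GFP-ZFP36L1 over control) on the horizontal axis for the 35 genes, grouped by role from top to bottom. Points are estimates from edgeR and bars their 95% intervals, and the intervals of Cnot6l, Tob1, Btg1 and Btg2 are the 4 that do not reach 0.

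Of the 4 BTG and TOB adaptors, Btg1, Btg2 and Tob1 had the largest fold changes of the 35 genes, in both directions, none of them past the test after adjustment. Btg1 (ENSMUSG00000036478, chromosome 10, 96617006 to 96622809, plus strand), an antiproliferative adaptor abundant in resting lymphocytes, had 1007, 877, 879 and 782 CPM in labelled libraries 1 to 4, against 1146, 1038, 1001 and 970.0 CPM in control libraries 1 to 4. The labelled libraries lay lower, but library 1 of that group was above the 2 lowest controls, so the groups overlapped. The difference on the log2 scale was -0.23 ± 0.09 (SE, 95% interval -0.42 to -0.04), and edgeR's test gave an adjusted p of 0.185. Btg2 (ENSMUSG00000020423, chromosome 1, 134075170 to 134079120, minus strand), its close relative and a target of p53, had 367, 327, 344 and 288 CPM in labelled libraries 1 to 4, against 381, 421, 367 and 387 CPM in control libraries 1 to 4. The highest labelled library stood level with the lowest control and the rest were below every control. Here the log2 fold change came to -0.23 ± 0.08 (SE, 95% interval -0.40 to -0.06; edgeR adjusted p 0.135). Both genes passed when a surrogate variable or the number in the sample titles was added to the model, and without labelled library 1, with adjusted p from 0.012 to 0.0488 in edgeR's test, and neither passed under the other 15 of 18 alternatives. The fits in which they passed called, in the order named, 1243, 1030 and 948 genes over the whole table, against 407 in the main fit. With a surrogate variable or the title number, but not without labelled library 1, members were called at a lower rate than all tested genes. The authors' deposited table gave adjusted p of 0.0894 for Btg1 and 0.0671 for Btg2.

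Tob1 (ENSMUSG00000037573, chromosome 11, 94211454 to 94215495, plus strand) is an adaptor with a longer C-terminal region that contacts poly(A)-binding protein. Its mean CPM was the lowest of the 35 genes, and its change ran the other way. Tob1 had 22.3, 26.3, 23.8 and 21.9 CPM in labelled libraries 1 to 4, against 20.2, 23.4, 19.2 and 20.2 CPM in control libraries 1 to 4. The groups overlapped through control library 2, which was above 2 labelled libraries. The log2 fold change of Tob1 came to 0.18 ± 0.08 (SE, 95% interval 0.01 to 0.36; edgeR adjusted p 0.26), and the gene passed under none of the 18 alternatives. Tob2, the related adaptor, had 104 ± 7.42 CPM in labelled and 109 ± 9.71 CPM in control libraries (SD, n = 4 each), a log2 fold change of -0.06 ± 0.07 (SE).

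**Figure D2:**
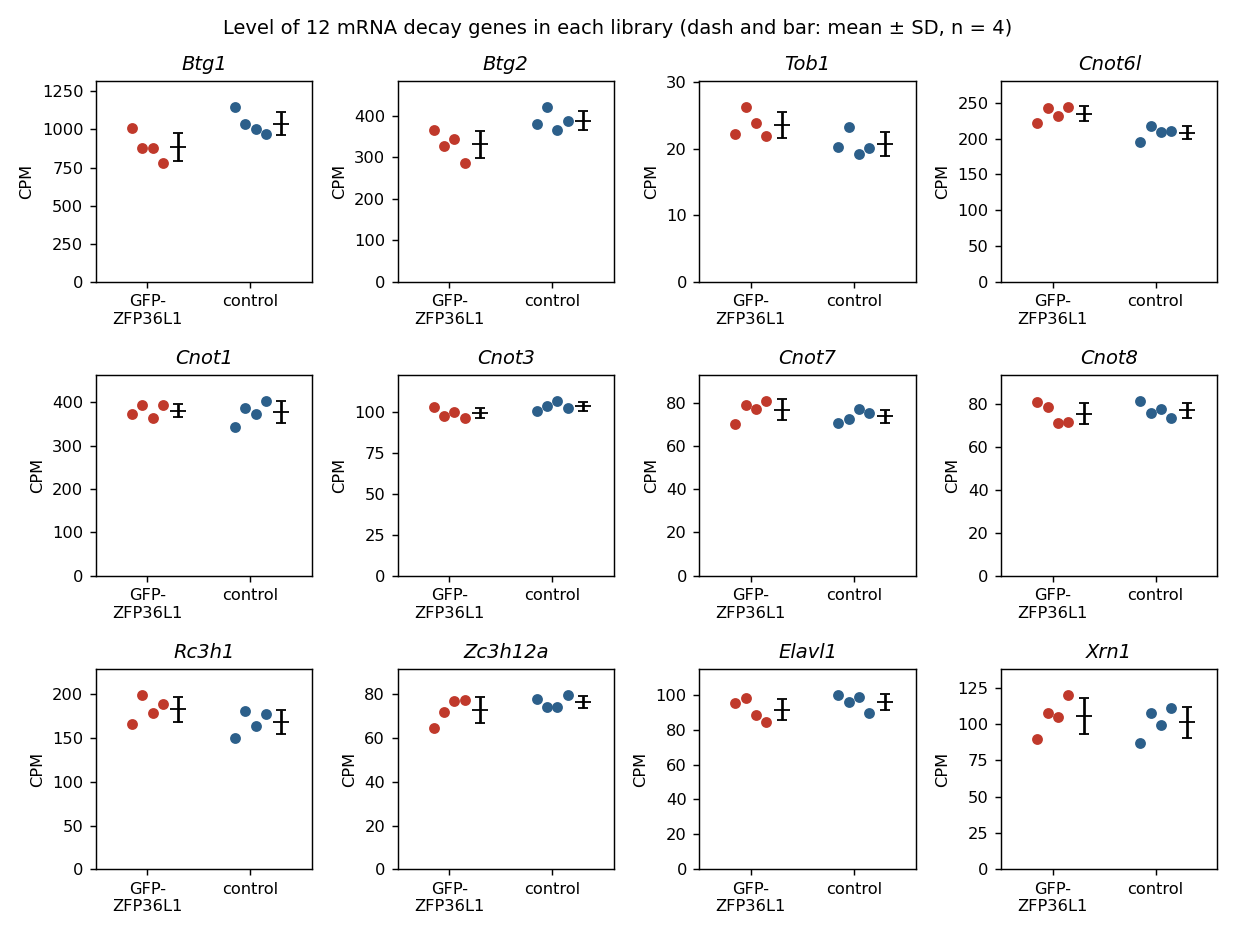
Level in CPM (vertical axes, from 0) of 12 of the genes in each of the 4 GFP-ZFP36L1 libraries (left, red) and 4 control libraries (right, blue), with mean ± SD beside them. Cnot6l is the gene here whose groups do not overlap, Btg1 and Btg2 lie lower in most GFP-ZFP36L1 libraries, and Cnot1, Cnot7, Cnot8 and Xrn1 share their range.

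Among the 11 genes of CCR4-NOT, 7 had positive and 4 negative log2 fold changes (8 and 3 under upper-quartile scaling), from -0.06 to 0.17. Cnot6l (ENSMUSG00000034724, chromosome 5, 96070333 to 96164171, minus strand), 1 of the 2 CCR4-type catalytic deadenylases of the complex, had the smallest p of all members. It was measured at 222, 242, 231 and 244 CPM in labelled libraries 1 to 4, against 196, 217, 209.6 and 211 CPM in control libraries 1 to 4, so that each labelled library exceeded each control. Cnot6l had a log2 fold change of 0.17 ± 0.05 (SE), a level 12.75% higher, with a 95% interval of 0.06 to 0.29. By edgeR it missed the threshold, at an adjusted p of 0.115. It passed in 4 alternatives, in DESeq2 at an adjusted p of 0.0306, in limma voom at 0.0453, after adding a surrogate variable at 0.0340 and on leaving out labelled library 1 at 0.0397, and the value ran up to 0.314 over the 18 alternatives. In the authors' deposited table its log2 fold change was 0.17 and its adjusted p 0.0327. Its 3' UTR carries the 3 TATTTAT sites shown above.

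In the other catalytic and structural subunits the groups overlapped. Cnot6, the second CCR4-type nuclease, had 165 ± 5.53 CPM in labelled and 159 ± 11.7 CPM in control libraries (SD, n = 4 each). Cnot1, the scaffold to which ZFP36 family proteins bind, had 372, 394, 363 and 393 CPM in labelled libraries 1 to 4, against 343, 387, 374 and 403 CPM in control libraries 1 to 4. The ranges overlapped nearly in full, and the log2 fold change was 0.01 ± 0.06 (SE). Cnot3, a subunit of the NOT module needed for early B cell development, had 103, 97.9, 100.4 and 96.5 CPM in labelled libraries 1 to 4, against 101, 104, 107 and 103 CPM in control libraries 1 to 4. The labelled libraries averaged slightly lower, by a log2 fold change of -0.06 ± 0.04 (SE), with overlap. Of the CAF1-type nucleases, Cnot7 had 70.1, 79.2, 77.3 and 80.8 CPM in labelled libraries 1 to 4, against 70.5, 72.5, 77.3 and 75.2 CPM in control libraries 1 to 4. The log2 difference was 0.06 ± 0.06 (SE), and 2 labelled libraries exceeded every control. Cnot8 had 80.8, 78.5, 71.1 and 71.7 CPM in labelled libraries 1 to 4, against 81.5, 76.0, 77.5 and 73.4 CPM in control libraries 1 to 4, a log2 fold change of -0.03 ± 0.06 (SE) with overlapping groups. Cnot2, the partner of CNOT3, Cnot4, a RING-type ubiquitin ligase, Cnot9, the subunit that binds GW182 proteins, and Cnot10 and Cnot11, which sit together at the N terminus of CNOT1, had log2 fold changes of -0.04 ± 0.06, 0.06 ± 0.05, -0.01 ± 0.05, 0.02 ± 0.05 and 0.04 ± 0.05 (SE).

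The other deadenylase and poly(A)-binding protein showed no difference past the test. Pan2, the catalytic subunit, had 159 ± 14.5 CPM in labelled and 153 ± 9.52 CPM in control libraries, Pan3, its adaptor, 211 ± 13.7 CPM in labelled and 213 ± 6.65 CPM in control libraries, and Pabpc1, the main cytoplasmic poly(A)-binding protein, 798 ± 63.2 CPM in labelled and 806 ± 23.1 CPM in control libraries (SD, n = 4 each). Their log2 fold changes were 0.05 ± 0.07, -0.02 ± 0.06 and -0.02 ± 0.07 (SE).

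In decapping and decay from the 5' end, 5 of 6 genes had positive log2 fold changes, over a range of -0.01 to 0.06. Under upper-quartile scaling all 6 were positive. A further fit left out the libraries at both ends of component 1 of a principal component analysis. In it Dcp1a, Dcp1b, Dcp2 and Xrn1 turned negative, at -0.004, -0.032, -0.037 and -0.07, and Edc3 stayed positive, at 0.032. Dcp2, the decapping enzyme, had 98.5, 106, 94.8 and 114 CPM in labelled libraries 1 to 4, against 94.6, 103, 103 and 101 CPM in control libraries 1 to 4. Xrn1, the exonuclease that follows it, had 89.8, 108, 105 and 120.0 CPM in labelled libraries 1 to 4, against 86.7, 107, 99.1 and 111 CPM in control libraries 1 to 4. Both sets of ranges overlapped, with log2 fold changes of 0.04 ± 0.06 and 0.06 ± 0.09 (SE), and Xrn1 had among the widest 95% intervals of the members, at -0.14 to 0.27. The DCP2 activators Dcp1a and Dcp1b and the scaffold genes Edc3 and Edc4 had log2 fold changes of 0.06 ± 0.06, 0.02 ± 0.08, 0.03 ± 0.06 and -0.01 ± 0.05 (SE). Upf1, the helicase of nonsense-mediated decay, had 157, 166, 157 and 154 CPM in labelled libraries 1 to 4, against 159, 164, 168 and 177 CPM in control libraries 1 to 4. It averaged lower in the labelled libraries, by a log2 fold change of -0.07 ± 0.05 (SE), with overlap.

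The log2 fold changes of the 7 element-binding genes ran from -0.07 to 0.04. Elavl1, which stabilises AU-rich mRNAs, had 94.9, 98.1, 88.3 and 84.4 CPM in labelled libraries 1 to 4, against 99.9, 95.7, 98.4 and 89.7 CPM in control libraries 1 to 4. The labelled mean was lower and the ranges overlapped, with a log2 fold change of -0.07 ± 0.06 (SE). Hnrnpd, encoding the AU-rich element binding protein AUF1, had 196, 197, 202 and 230.4 CPM in labelled libraries 1 to 4, against 206, 197, 224 and 210.2 CPM in control libraries 1 to 4. The groups overlapped, with a log2 fold change of -0.02 ± 0.07 (SE). Khsrp (KSRP, a promoter of AU-rich decay), the translational repressor genes Tia1 and Tial1, Celf1, whose protein binds GU-rich elements, and Pum2, of the Pumilio family, had log2 fold changes of 0.04 ± 0.06, 0.01 ± 0.10, -0.01 ± 0.06, 0.03 ± 0.06 and 0.02 ± 0.06 (SE).

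Of the stem-loop binding genes, Rc3h1, encoding Roquin-1, had 166, 199, 178 and 188 CPM in labelled libraries 1 to 4, against 150.3, 181, 164 and 177 CPM in control libraries 1 to 4. Its log2 fold change of 0.12 ± 0.07 (SE) had an interval of -0.04 to 0.28, and the groups overlapped. Rc3h2, encoding Roquin-2, had 105 ± 11.4 CPM in labelled and 105 ± 6.69 CPM in control libraries (SD, n = 4 each). Zc3h12a, encoding the endonuclease Regnase-1, had 64.7, 71.9, 77.0 and 77.3 CPM in labelled libraries 1 to 4, against 77.5, 74.1, 74.0 and 79.7 CPM in control libraries 1 to 4. Labelled library 1 was the lowest of the 8, and the log2 fold change was -0.07 ± 0.06 (SE).

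The values were then set beside the heptamers shown at the outset. The 19 members with a TATTTAT in the longest 3' UTR had a median log2 fold change of 0.02, with 12 positive and 7 negative, and the 16 without one had a median of -0.01, with 7 positive and 9 negative. Under upper-quartile scaling these counts were 14 and 5 with the heptamer and 9 and 7 without. Over all tested genes the medians were 0.005 with the heptamer and -0.006 without. Elavl1, with 8 heptamers, had a log2 fold change of -0.07 ± 0.06, Cnot6l, with 3, 0.17 ± 0.05, Rc3h2, with 3, 0.00 ± 0.08, Btg2, with 1, -0.23 ± 0.08, and Btg1, with 0, -0.23 ± 0.09 (SE). These counts are a description, and a match of letters is not a site.

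Levels between genes were compared per kilobase of merged exons. Btg1 stood highest of the 35 at 168 ± 17.5 CPM per kb in labelled libraries and 197 ± 14.6 CPM per kb in the controls (SD, n = 4 each). Btg2 had 121 ± 12.2 and 142 ± 8.40 CPM per kb in labelled and control libraries, and Pabpc1 122 ± 9.67 and 123 ± 3.525 CPM per kb. In the labelled libraries Btg2 and Pabpc1 did not differ beyond their spread. Pum2 followed at 51.2 ± 2.53 and 50.5 ± 1.74 CPM per kb, and 31 further members ran down to Dcp1b at 4.85 ± 0.535 and 4.78 ± 0.286 CPM per kb. Within CCR4-NOT the levels ran from Cnot2 at 38.9 ± 2.40 and 39.9 ± 1.33 CPM per kb to Cnot4 at 5.54 ± 0.281 and 5.33 ± 0.185 CPM per kb, and the scaffold Cnot1 had 22.15 ± 0.896 and 21.95 ± 1.47 CPM per kb. With the longest transcript as the length, Pabpc1 came first at 275 CPM per kb over all libraries, then Btg1 at 192.5 and Btg2 at 131, and Cnot1 stood at rank 6 where merged exons gave rank 14, so the order rests on the length used.

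**Figure D3:**
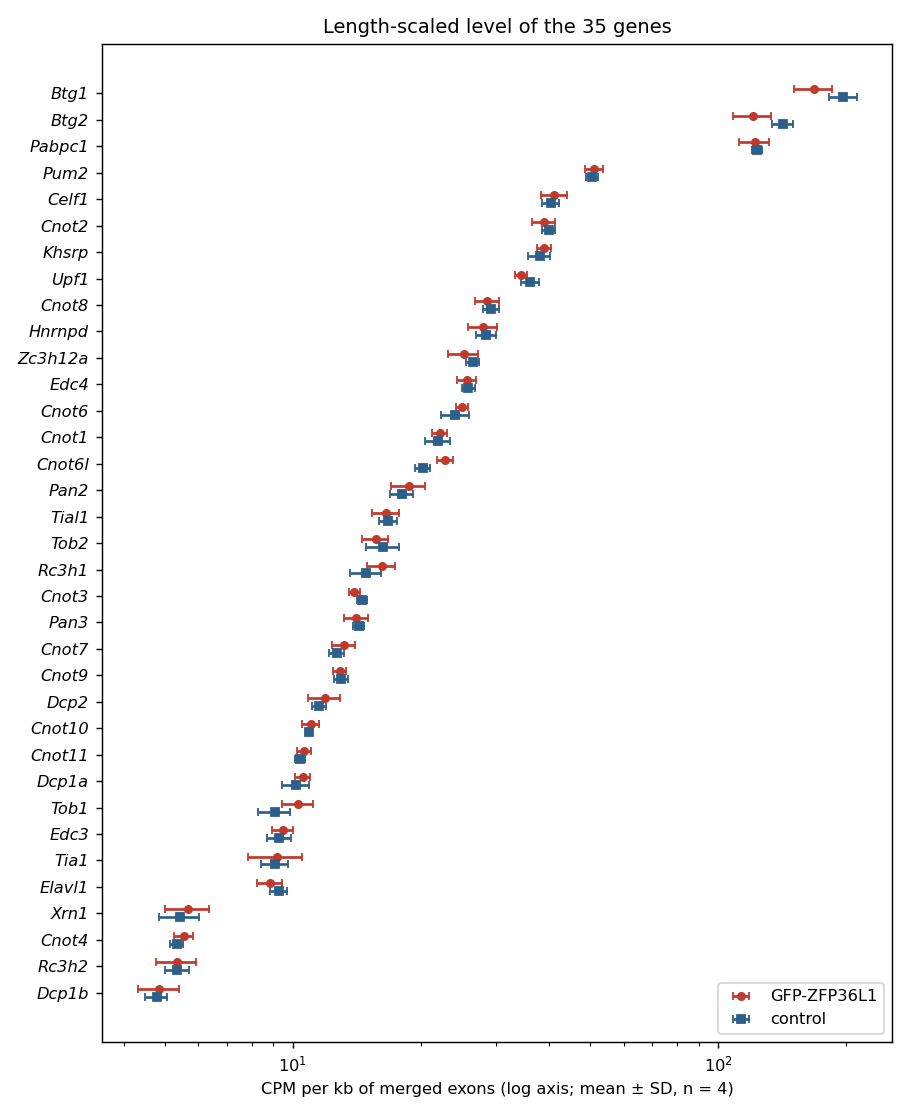
CPM per kb of merged exons (log axis) for the 35 genes, ordered by their mean over all libraries, as mean ± SD of 4 GFP-ZFP36L1 (red circles) and 4 control libraries (blue squares). Btg1, Btg2 and Pabpc1 stand apart above 100 CPM per kb, and Dcp1b is lowest at about 5 CPM per kb.

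Related or partner genes were then set against each other within each library, where the scaling of the library cancels. For 8 pairs the log2 ratio of length-scaled counts was compared by an exact two-sided permutation test, with 70 ways to choose 4 of the 8 libraries, whose smallest possible p is 0.0286. The Cnot6 to Cnot6l ratio was 0.14, 0.12, 0.16 and 0.10 in the labelled libraries, against 0.18, 0.24, 0.30 and 0.30 in the controls, lower in each labelled library (difference -0.12, exact p = 0.0286, n = 4 each). Cnot6l thus made up 47.7% of this nuclease pair in the labelled libraries and 45.6% in the controls. The Tob1 to Tob2 ratio was -0.80, -0.46, -0.60 and -0.57 in the labelled libraries, against -0.83, -0.82, -0.80 and -0.93 in the controls, with the lowest labelled library level with the highest control to the decimals printed (difference 0.24, exact p = 0.0286, n = 4 each). The Rc3h1 to Rc3h2 ratio was 1.71, 1.63, 1.52 and 1.54 in the labelled libraries, against 1.45, 1.51, 1.41 and 1.52 in the controls (difference 0.13, exact p = 0.0286, n = 4 each). It was higher in each labelled library, but the lowest labelled library and the highest control were level to the decimals printed. After Benjamini-Hochberg adjustment over the 8 pairs these 3 exact permutation tests had an adjusted p of 0.0762. At least 5 of the 8 pairs would have to reach the smallest p for any to pass, so 3 separated pairs could not pass whatever their size. Btg1 made up 58.2% ± 0.766 of the pair with Btg2 in the labelled libraries and 58.1% ± 2.23 in the controls (SD, n = 4 each; exact permutation p = 0.943). Cnot7 made up 31.6% ± 2.48 of the CAF1-type pair with Cnot8 in the labelled libraries and 30.3% ± 1.56 in the controls (SD, n = 4 each; exact permutation p = 0.4). The ratios of Pan2 to Pan3, Dcp1a to Dcp1b and Tia1 to Tial1 differed by 0.07, 0.04 and 0.02, with exact permutation p of 0.286, 0.543 and 0.857 (n = 4 each). Shares within a pair rest on the length used, here merged exons. With the longest transcript the larger gene changed for Pan2 with Pan3 and Tia1 with Tial1, and stayed the same in the other pairs.

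**Figure D4:**
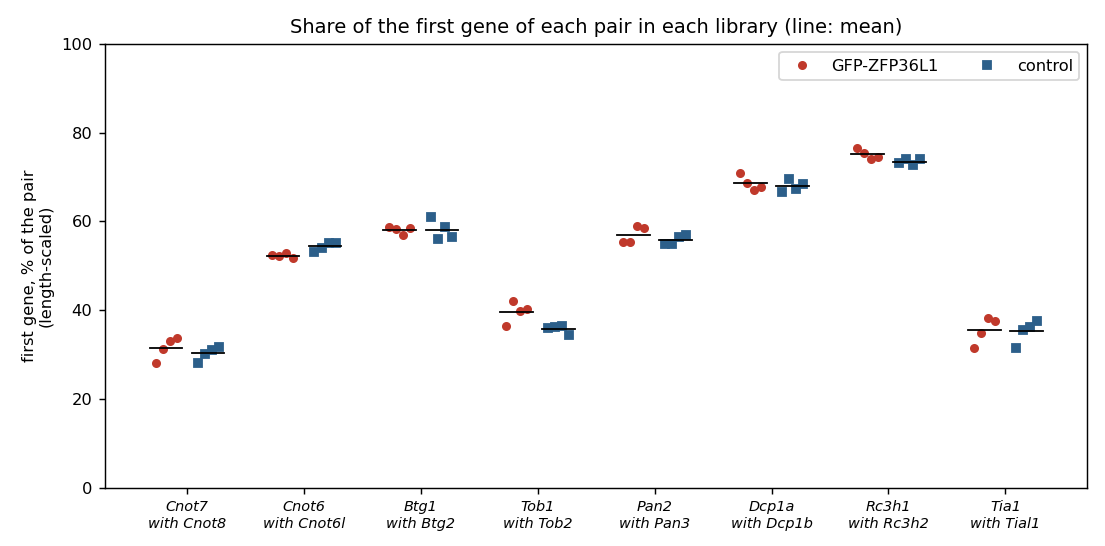
Share of the first gene of each pair in the length-scaled sum of the pair (percent, vertical axis) in each of 4 GFP-ZFP36L1 (red circles, left) and 4 control libraries (blue squares, right), with the mean as a line. The groups do not overlap for Cnot6 with Cnot6l, where the nearest libraries had 52.81% (GFP-ZFP36L1) and 53.06% (control). For Rc3h1 with Rc3h2 the nearest had 74.15% and 74.1%, and for Tob1 with Tob2 the groups meet at 36.5%. Lengths are merged exons, and the shares would differ with another length.

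The number in the sample titles, which runs from 1 to 8 with the groups alternating, went with a wide shift in these libraries. What it stands for is not given. Component 1 of a principal component analysis, with 37.3% of the variance, ordered the libraries of each group by it. Controls hold the numbers 1, 3, 5 and 7 and labelled libraries 2, 4, 6 and 8. A slope on the number thus enters the group difference of the main fit. With group in the model, 7 of the 35 members had a slope on this number that passed edgeR's quasi-likelihood test after adjustment. That share was no higher than the 20.8% of all tested genes that passed. Over the 7 steps between titles 1 and 8, Tia1, Xrn1, Dcp1b, Pan2 and Dcp1a were higher by log2 values of 0.39, 0.38, 0.30, 0.29 and 0.20, and Btg1 and Cnot8 were lower, at -0.33 and -0.19. Their adjusted p ran from 0.00681 for Pan2 to 0.0451 for Cnot8 in that test. The count was 0 without labelled library 4 and 1 (Pan2) without labelled library 1. The slope of Btg2 was -0.19 (adjusted p 0.16 by edgeR) and that of Cnot6l 0.10 (adjusted p 0.319 by edgeR). With the title number in the model the group differences of Btg1, Btg2 and Cnot6l were -0.185, -0.208 and 0.158 on the log2 scale, at adjusted p of 0.0369, 0.0488 and 0.05002 by edgeR.

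**Figure D5:**
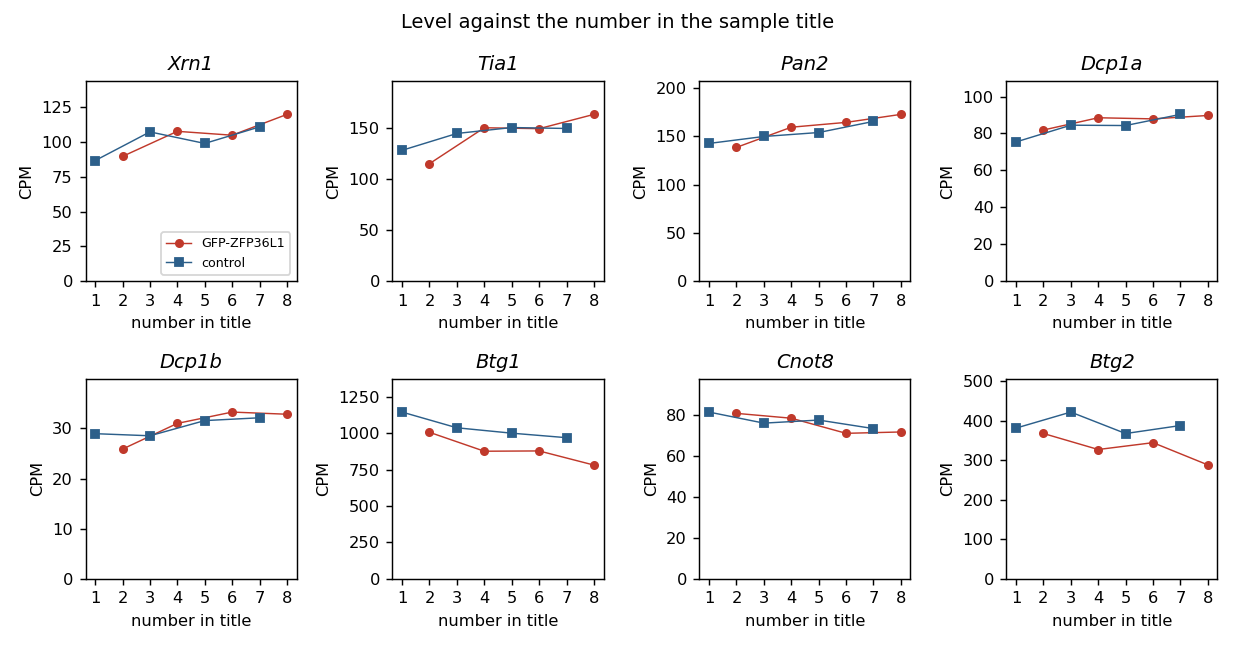
Level in CPM (vertical axes, from 0) of 8 genes against the number in the sample title (horizontal axis), for GFP-ZFP36L1 (red circles) and control libraries (blue squares). The fitted slopes of Xrn1, Tia1, Pan2, Dcp1a and Dcp1b are positive and those of Btg1 and Cnot8 negative, and Btg1 and Btg2 lie lower in GFP-ZFP36L1 libraries than in control libraries with neighbouring numbers.

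The rest of the decay pathway, 88 listed genes of which 84 were tested, was also examined. In edgeR's quasi-likelihood test 1 gene was higher and 1 lower after adjustment over all tested genes, against 1.83% and 1.30% of all tested genes. Ago4, an Argonaute protein of microRNA silencing, had 29.2, 34.1, 34.1 and 33.1 CPM in labelled libraries 1 to 4, against 23.8, 27.3, 23.7 and 24.0 CPM in control libraries 1 to 4, and each labelled library exceeded each control. Ago4 had a log2 fold change of 0.40 ± 0.07 (SE; edgeR adjusted p 0.0152). The call was kept in 14 of 18 alternatives. It was lost without labelled library 2 or 3 or control library 3 or 4, at adjusted p from 0.0502 to 0.0672. In the authors' deposited table the adjusted p of Ago4 was 6.03e-05. The lower gene was Zfp36l1, with a log2 fold change of -0.32 ± 0.07 (SE) and an adjusted p of 0.0348 by edgeR. The call was lost when any 1 library but labelled library 1 was left out, at adjusted p from 0.0701 to 0.105. These fits called 79 to 240 genes over the whole table, against 407 in the main fit. Zfp36l1 was called in 10 of 18 alternatives, among them DESeq2 at an adjusted p of 0.00041 and limma voom at 0.0065. The authors' deposited table gave it an adjusted p of 0.00044. Besides Ago4 and Zfp36l1, 3 of the 84 genes had an unadjusted p under 0.05 in edgeR's test, which makes 5.95% in all against the background of 17.3%, and they are named here after their values were seen. Ago1, another Argonaute protein, had a log2 fold change of 0.16 ± 0.07 (SE; edgeR adjusted p 0.222). Zfp36l2, a relative of Zfp36l1, had -0.28 ± 0.10 (SE; edgeR adjusted p 0.189) and Hnrnpab, an RNA-binding protein related to AUF1, -0.19 ± 0.09 (SE; edgeR adjusted p 0.288), and each of these 2 was called in 2 of 18 alternatives. In the lists with no called gene, the genes with the smallest p were Angel1 among deadenylases and BTG relatives, Xrn2 among decapping factors, Exosc7 in the RNA exosome, Smg9 in nonsense-mediated decay and Gigyf2 among cap-repression factors. Their log2 fold changes were 0.10 ± 0.07, -0.12 ± 0.06, -0.11 ± 0.05, -0.11 ± 0.05 and 0.10 ± 0.05 (SE). The signs in each list were 3 positive and 4 negative for 7 deadenylases and relatives, 5 and 12 for 17 decapping and LSM genes, 5 and 11 for 16 exosome and SKI genes, 5 and 4 for 9 nonsense-mediated decay genes, 6 and 2 for 8 microRNA silencing genes, 9 and 8 for 17 other element-binding genes, and 5 and 5 for 10 poly(A)-binding partners and cap repressors. Over all 84 there were 38 positive and 46 negative, against 46 and 38 under upper-quartile scaling. The median log2 fold change over the 84 was -0.005.

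The 5 tested genes outside the 35 whose log2 CPM followed Cnot6l most closely over the 8 libraries were Dnajc1, Fnip1, Gpr157, Dtx3l and Bcr, with Pearson's r of 0.98, 0.98, 0.98, 0.98 and 0.97. The points share libraries and the 2 groups, and the values are a description. Their log2 fold changes were 0.27 ± 0.07, 0.20 ± 0.06, 0.33 ± 0.15, 0.20 ± 0.06 and 0.17 ± 0.06 (SE), and none passed edgeR's quasi-likelihood test, at adjusted p from 0.0589 to 0.287, with the group difference part of each correlation.

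Some counts are uncertain through neighbours or copies, since the strand setting of the counting is unknown here. Edc3 shares 22.1% of its exon bases with Clk3 on the other strand, and the remaining exon overlaps, including Cnot3 with Leng1, Cnot2 with an antisense transcript and Edc4 with Nrn1l on the same strand, cover at most 8.33% of a member. Stretches of at least 300 bp with 95% identity elsewhere in the annotated transcripts cover 36.2% of the longest transcript of Cnot8, 15.2% of Khsrp, 10.8% of Cnot1 and 6.24% of Btg1.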

How the data were processed

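RNA-seq counts per Ensembl gene of 8 libraries (4 labelled GFP-ZFP36L1, 4 control) were deposited by the authors. The submitters' processing notes name Trim Galore, TopHat2 2.0.12, HTSeq, DESeq2 1.10.1 and GRCm38, without their settings. The authors also deposited a normalized signal, in which each count is divided by 1 factor per library, and a table of log2 fold changes, p-values, adjusted p-values and test scores, used here for the values credited to it.

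From the counts, genes passing filterByExpr were fitted in edgeR 4.0.16 (TMM factors, robust quasi-likelihood test, 2 groups), with Benjamini-Hochberg adjustment over all 13035 tested genes and a threshold of 0.05. Levels are CPM on TMM-scaled library sizes, and CPM per kb divides by the merged exon length of GENCODE M21. Pairs were compared by exact permutation tests over libraries (scipy 1.17.1). Heptamers were counted in the longest 3' UTR per gene, and near copies with blastn 2.17.0. Alternatives were DESeq2 1.42.0, limma voom 3.58.1, 1 surrogate variable (sva 3.50.0), the title number as a term, other scalings and filters, and leaving out each library. A fit without the libraries at both ends of component 1 was chosen after seeing the data. The normalized signal enters no result.

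All 35 genes and the wider lists were chosen with earlier results of these data known. Values in every library were given for 14 genes fixed by name and for each gene with an unadjusted p under 0.05. Of the wider lists each called gene was named, or else the gene with the smallest p. No count columns were left unmapped. Library totals were between 38947758 and 51024233 counts.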

Additional observations from a re-analysis of the deposited data

Results flagged for a closer look

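In 6 of 90 groups of 4 libraries, 1 library stood far from the other 3, where about 4.5 such groups are expected, since chance flags about 1 in 20. Among the CCR4-NOT genes, the lowest control library had 142 CPM of Cnot6, where the next lowest had 164 CPM. The highest labelled library had 51.81 CPM of Cnot9, against 48.54 CPM in the next. Edc3 reached 59.61 CPM in 1 labelled library and 53.76 CPM in the next, and this gene shares 22.1% of its exon bases with Clk3. Hnrnpd reached 230.4 CPM in labelled library 4, against 201.8 CPM in the next. Outside the 35 genes, Ago4 reached 27.32 CPM in 1 control library and 23.98 CPM in the next. Zfp36l1 reached 599.4 CPM in control library 1 and 534.6 CPM in the next.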

How the results depend on the processing

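Of 740 alternative values, most of them for single genes and pairs, 645 kept their direction and side of the threshold. Of the rest, 10 newly passed it, 12 no longer did, 1 moved and 72 changed sign, none of the last past the threshold. Counts of called genes, given next, are largely left out of these values, and several of them moved. Of the 35 genes, DESeq2 called 1, limma voom 1, the fit that added a surrogate variable 3 and the fit that added the title number 2, and the count was 0 to 3 when 1 library was left out, with 3 without labelled library 1. For the wider decay list it was 4 with limma voom and 0 to 3 when 1 library was left out, with 0 without labelled library 2 or 3 or control library 3 or 4. Over all tested genes DESeq2 called 882, limma voom 1053, the surrogate variable fit 1243 and the title number fit 1030, and the count was 79 to 948 when 1 library was left out, lowest without control library 3 and highest without labelled library 1. Slopes on the title number passed in 0 to 8 of the 35 genes when 1 library was left out. The sign of a log2 difference turned for 24 genes and pairs. With both ends of component 1 left out it became -0.017 for Celf1, -0.020 for Pan2, -0.009 for Cnot6, 0.021 for Cnot8, -0.004 for Dcp1a, -0.037 for Dcp2, -0.070 for Xrn1, -0.044 for Cnot1, -0.032 for Dcp1b and -0.100 for Tia1. In limma voom it became -0.003 for Khsrp, -0.013 for Pum2, -0.011 for Dcp2, 0.001 for Edc4, -0.016 for Cnot1 and 0.005 for Rc3h2. Under upper-quartile scaling it became 0.005 for Cnot9, 0.001 for Tial1, 0.003 for Edc4 and 0.016 for Rc3h2. In the surrogate variable fit it became -0.006 for Cnot1, -0.024 for Dcp1b and -0.057 for Tia1. In the title number fit it became -0.004 for Cnot1, -0.024 for Dcp1b and -0.049 for Tia1. In DESeq2 it became 0.001 for Rc3h2. Under RLE scaling it became 0.002 for Rc3h2. Under the 1 CPM filter it became 0.009 for Rc3h2. With 1 library left out the values ran from -0.035 to 0.061 for the ratio of Btg1 to Btg2, -0.009 to 0.078 for the ratio of Dcp1a to Dcp1b, -0.060 to 0.107 for the ratio of Tia1 to Tial1, -0.073 to 0.013 for Hnrnpd, -0.014 to 0.073 for Celf1, -0.001 to 0.082 for Cnot6, -0.005 to 0.042 for Pum2, -0.062 to 0.019 for Pabpc1, -0.005 to 0.082 for Dcp2, -0.036 to 0.017 for Cnot9, -0.057 to 0.020 for Pan3, -0.054 to 0.022 for Tial1, -0.003 to 0.142 for Xrn1, -0.041 to 0.026 for Edc4, -0.029 to 0.047 for Cnot1, -0.008 to 0.072 for Edc3, -0.018 to 0.104 for Dcp1b, -0.001 to 0.051 for Cnot10, -0.045 to 0.116 for Tia1 and -0.045 to 0.083 for Rc3h2. The causes were not tested. No pair of genes passed under any alternative run, but with 8 pairs an adjusted p under 0.05 takes at least 5 pairs at the smallest exact p, 0.0286, so that was out of reach for a few pairs alone. No paired analysis was run, because no label names pairs of libraries across the groups.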
